A study of Danio rerio with 24 samples.

Results

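The mitosis and spindle genes examined here were 58 genes of zebrafish chosen by name for their parts in cell division: the cyclins and cyclin-dependent kinase that start mitosis, the mitotic kinases, the kinetochore and spindle checkpoint proteins, the proteins that control anaphase, the kinesin motors and other proteins of the spindle, the proteins of cytokinesis and those of chromosome condensation. Probes of the array were assigned to them through the RefSeq accession that the deposited files give for each probe. In this way 38 genes had a probe, on 66 probes in all, out of 43603 probes on the array. The other 20, among them mki67, top2a, bub1 and cenpa, were not matched to a probe by accession and were not analysed here. On the filter for dim probes, 65 of the 66 probes passed in all 6 groups, and the remaining one, a probe of kif4, passed in 5.

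Eyes of AB line zebrafish were measured on 24 Agilent arrays with 1 colour. Larvae were exposed from 48 hours post fertilization (hpf) to 0.3 uM mebendazole (MBZ), an anthelmintic that binds tubulin, or to 0.3 uM BBC, a related benzimidazole used as the control. According to its name in the methods, BBC shares the benzimidazole carbamate and benzoyl groups of MBZ and carries in addition a butyl ester on the benzoyl ring. Exposure lasted 12, 24 or 36 h, so that eyes were collected at 60, 72 and 84 hpf, and each of the 6 groups had 4 arrays. All groups were exposed to 1 of these compounds, and no untreated group was used here. The RNA of each array came from pooled eyes. The labels do not say whether the 4 pools of a group came from separate clutches or exposures, so the p-values measure only the spread between these pools.

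In a dividing cell, cyclin B and Cdk1 start mitosis, and microtubules of the spindle attach to each chromosome at its kinetochore. The spindle checkpoint, which includes Mad2l1, Bub3 and Ttk, holds Cdc20 inactive until every kinetochore is attached, after which Cdc20 and the anaphase promoting complex mark cyclin B for destruction. Drugs that disturb microtubules can keep cells in mitosis through this checkpoint. In the zebrafish eye, retinal progenitor cells divide during these days and then leave the cell cycle as neurons, and division continues at the margin of the retina.

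Values are given as log2 levels, which are the log2 signal of a probe minus log2 of the 75th percentile of its array. A level of 0 is therefore the 75th percentile, and levels of different probes were not set against each other. A gene is represented by its probe with the highest mean. The threshold for a call was an adjusted p of 0.20, which is the false discovery rate in the study's methods, from limma and the Benjamini-Hochberg adjustment over all 31507 tested probes. At the 75th percentile, arrays had signals from 437 to 1433, and the 24 h arrays were the dimmest, with medians of 542 (BBC) and 613 (MBZ) beside 1114 and 1000 for the 12 h arrays. Between 66.5% and 76.7% of the probes of an array were well above background. The arrays of the 3 exposure times were scanned on 3 separate days, 1 per time, so the age of the eyes and the day of scanning cannot be told apart, and at each time replicates 1 and 2 shared 1 slide and replicates 3 and 4 another. BBC arrays held positions 1 and 3 of each slide and MBZ arrays positions 2 and 4, so position and compound cannot be told apart. Of the 22 listed eye marker genes, such as opsins, crystallins and retinal transcription factors, 18 were tested and all 18 were well above background on all 24 arrays.

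The levels of the mitosis and spindle genes fell as the eyes grew older. Between 12 and 36 h of exposure the change of all 38 genes was below 0 in both compounds. All 38 were called lower in BBC eyes and 37 of 38 in MBZ eyes. With normexp background correction 28 and 23 genes were called, beside 24.5% and 22.4% of all tested probes called in either direction. In the median over the 38 genes, most of the fall was already present at 24 h, with differences from 12 h of -0.88 and -0.89. The 24 h arrays were the dimmest, and in BBC eyes the means of 10 of the 38 genes were higher at 36 h than at 24 h. The median log2 change from 12 to 36 h was -1.03 in BBC eyes and -1.0 in MBZ eyes, while the medians of all tested probes were 0.03 and 0.01. All 38 genes in BBC eyes and 34 in MBZ eyes were lower at 36 h without overlap between the arrays of the 2 times, beside 30.3% and 26.1% of all tested probes. At the threshold on the adjusted p, 37.6% of all tested probes were called lower in BBC eyes and 38.1% in MBZ eyes.

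**Figure D1:**
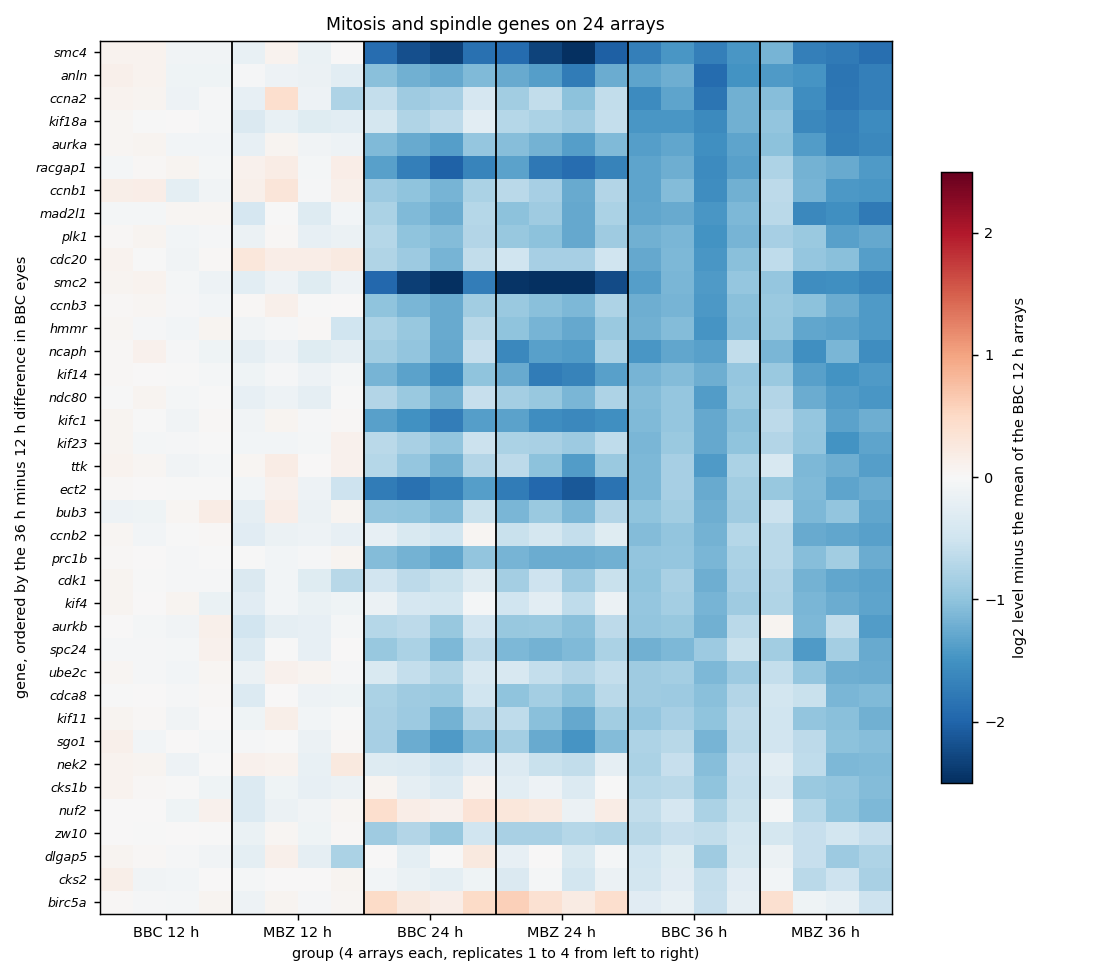
Log2 levels of the 38 genes (rows) on the 24 arrays (columns, 4 per group), shown as the difference from the mean of the BBC 12 h arrays of the same gene, with blue for lower and red for higher. Rows are ordered by the 36 h minus 12 h difference in BBC eyes, from -1.59 in smc4 at the top to -0.32 in birc5a at the bottom.

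The same course was seen when each array was summarised by the median level of the 38 genes. On the 12 h arrays of BBC eyes this median lay between 3.61 and 3.66, on the 24 h arrays between 2.54 and 3.08 and on the 36 h arrays between 2.34 and 2.76. The corresponding ranges of MBZ eyes were 3.46 to 3.67, 2.56 to 2.91 and 2.35 to 3.07. The arrays of 12 h lay above those of 24 and 36 h in both compounds, whereas the ranges of 24 and 36 h overlapped. The highest 36 h array was replicate 1 of MBZ, at 3.07 against 2.35 to 2.56 in the other 3. The same array had the lowest median of the MBZ 36 h arrays for eye marker genes, at 4.25 against 4.45 to 4.56, and for skeletal muscle genes, at 2.01 against 2.65 to 2.85.

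**Figure D2:**
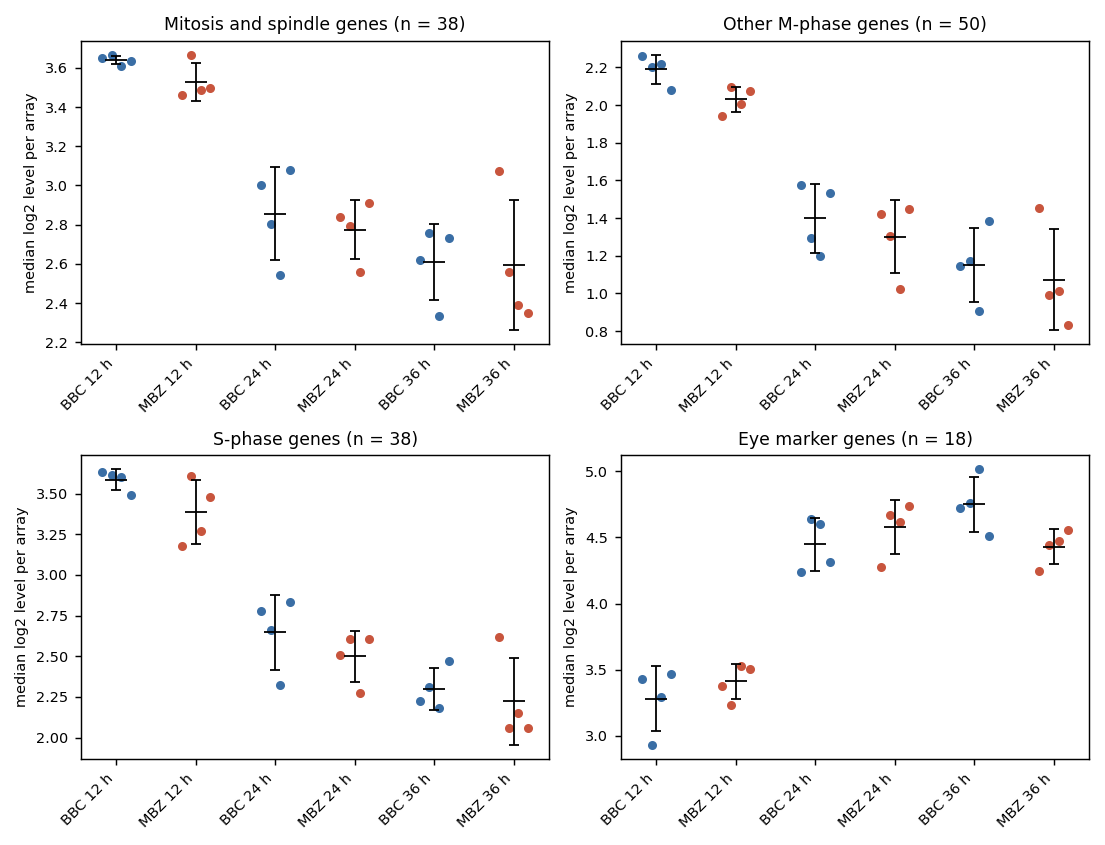
Median log2 level per array (points, blue for BBC and red for MBZ) of 4 gene lists in the 6 groups, with the mean and SD of 4 arrays in black. The lists of cell division genes were highest at 12 h and the eye marker genes lowest at 12 h, and 1 MBZ 36 h array stood at 3.07 for the mitosis and spindle genes.

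Among the genes that start mitosis, all 7 cyclin and cyclin-dependent kinase genes fell in both compounds. Cyclin B1 (ccnb1) was at 4.84, 5.0, 5.24 and 5.25 on the BBC 12 h arrays and at 3.53, 3.76, 3.89 and 4.0 on the BBC 36 h arrays. The groups did not overlap, and the log2 change was -1.29 ± 0.16 (SE, adjusted p = 6.62e-07). In MBZ eyes ccnb1 fell by 1.31 ± 0.16 on the log2 scale (adjusted p = 6.23e-07). Cyclin A2 (ccna2), which acts from S phase into early mitosis, fell by 1.48 ± 0.20 in BBC eyes and by 1.36 ± 0.20 in MBZ eyes. The smallest change of this group was that of cks2, a small protein that binds cyclin-dependent kinases, at -0.41 ± 0.12 (adjusted p = 0.00681) in BBC eyes and -0.53 ± 0.12 (adjusted p = 8.95e-04) in MBZ eyes.

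The 3 mitotic kinases fell as well. Aurora A (aurka), which acts at the spindle poles, fell by 1.39 ± 0.12 in BBC eyes and by 1.34 ± 0.12 in MBZ eyes. Polo-like kinase 1 (plk1) was at 4.65, 4.68, 4.73 and 4.77 on the BBC 12 h arrays and at 3.22, 3.50, 3.54 and 3.56 at 36 h, a gap of more than 1 log2 unit between the groups. Its change was -1.25 ± 0.12 (adjusted p = 1.76e-08) in BBC eyes and -0.98 ± 0.12 (adjusted p = 5.58e-07) in MBZ eyes.

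The chromosomal passenger complex, which corrects faulty attachments of microtubules, had median changes of -0.90 in BBC eyes and -0.53 in MBZ eyes. Its kinase Aurora B (aurkb) fell by 0.95 ± 0.21 in BBC eyes. In MBZ eyes the change of aurkb was -0.53 ± 0.21 (adjusted p = 0.0310), and the 12 h and 36 h arrays overlapped, since replicate 1 at 36 h stood at 5.05 while the others were at 3.60 to 4.38. Survivin (birc5a) changed by -0.32 ± 0.14 in BBC eyes (adjusted p = 0.0487), a call lost with quantile scaling (-0.12), the authors' values (-0.13) and normexp (-0.33), and in MBZ eyes it was the 1 gene not called, at -0.10 ± 0.14 (adjusted p = 0.544), although all 38 genes were called without replicate 1 at 36 h. Its second probe fell by 0.80 in BBC eyes (adjusted p = 9.53e-06) and by 1.01 in MBZ eyes (adjusted p = 5.58e-07), so the 2 probes gave different sizes of change. Borealin (cdca8) was called lower on 2 of its 3 probes in both compounds, by 0.90 in BBC eyes on the representative probe, and the third probe changed by -0.12 (adjusted p = 0.699) in BBC eyes and 0.09 (adjusted p = 0.772) in MBZ eyes.

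Kinetochore and checkpoint genes fell in all cases. Ndc80 (ndc80), the protein that holds the microtubule, fell by 1.1 ± 0.15 in BBC eyes and by 1.07 ± 0.15 in MBZ eyes. The checkpoint gene mad2l1 was at 3.72, 3.73, 3.82 and 3.83 on the BBC 12 h arrays and at 2.32, 2.47, 2.52 and 2.64 at 36 h. Its change was -1.28 ± 0.18 (adjusted p = 2.57e-06) in BBC eyes and -1.19 ± 0.18 (adjusted p = 7.31e-06) in MBZ eyes. The checkpoint kinase gene ttk fell by 1.04 ± 0.18 and 1.11 ± 0.18. The zw10 gene, part of the complex that brings dynein to kinetochores, fell less, by 0.58 ± 0.08 in BBC eyes (adjusted p = 3.50e-06) and by 0.45 ± 0.08 in MBZ eyes (adjusted p = 7.33e-05).

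Genes of anaphase, of the spindle motors and of cytokinesis fell by similar amounts. The anaphase activator cdc20 fell by 1.23 ± 0.14 in BBC eyes and by 1.2 ± 0.14 in MBZ eyes, and the ubiquitin conjugating enzyme ube2c by 0.95 ± 0.12 and 1.01 ± 0.12. Among the 5 kinesins the medians were -1.1 and -1.04, from kif18a at -1.43 ± 0.13 to kif11, the motor that separates the spindle poles, at -0.86 ± 0.14 in BBC eyes. Anillin (anln), a scaffold of the contractile ring, fell by 1.49 ± 0.14 in BBC eyes and by 1.46 ± 0.14 in MBZ eyes, and the kinesin kif23 of the central spindle by 1.09 ± 0.13 and 1.11 ± 0.13. Of the spindle microtubule binding genes, dlgap5 had the smallest fall, 0.54 ± 0.18 in BBC eyes (adjusted p = 0.0110), and its change in MBZ eyes was -0.32 ± 0.18 (adjusted p = 0.114), with overlapping groups. The call of dlgap5 in MBZ eyes was lost without replicate 2 at 12 h and without replicate 3 or 4 at 36 h, which left 36 genes called.

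The largest fall from 12 to 36 h was that of the condensin gene smc4, which folds chromosomes for mitosis. It was at 6.06, 6.07, 6.23 and 6.25 on the BBC 12 h arrays and at 4.43, 4.45, 4.69 and 4.69 at 36 h. The log2 change was -1.59 ± 0.15 (adjusted p = 1.34e-08) in BBC eyes and -1.57 ± 0.15 (adjusted p = 1.92e-08) in MBZ eyes. The other condensin genes, smc2 and ncaph, also fell in both compounds, smc2 by 1.22 ± 0.18 in BBC and in MBZ eyes.

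The genes did not take the same course through 24 h. Against 12 h, 31 of 38 genes were lower at 24 h in BBC eyes without overlap between the groups, and 30 of 38 were in MBZ eyes, while 29.0% and 28.0% of all tested probes were lower without overlap. With 4 arrays against 4, groups that do not overlap give the smallest p an exact permutation test allows, 0.0286 two-sided. From 24 to 36 h, 13 genes were lower without overlap in BBC eyes and 4 in MBZ eyes, against 30.5% and 29.6% of all probes. Over the same interval smc2, smc4, ect2 and kifc1 were higher without overlap in both compounds, and zw10 in MBZ eyes, against 20.8% and 20.9% of all probes.

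The level of smc2 was 4.13, 4.21, 4.31 and 4.34 on the BBC 12 h arrays, 1.63, 1.90, 2.29 and 2.52 at 24 h and 2.84, 2.88, 3.10 and 3.27 at 36 h. All 24 h arrays thus lay below all 36 h arrays. A second smc2 probe had the same course, with differences of -1.44 from 12 to 24 h and 0.50 from 24 to 36 h. The means of the remaining 3 smc2 probes in BBC eyes were lower at each step, with differences of -0.43 to -0.31 and then -1.49 to -0.68, so the course depended on the probe. Both probes of smc4, of ect2, which starts the cleavage furrow, and of kifc1, a motor that gathers the spindle poles, were lowest at 24 h, as was the second probe of ccnb1, whose representative probe was not. In BBC eyes the means of 10 of the 38 genes were lowest at 24 h. The others among them were kif11, kif14, prc1b, racgap1, sgo1 and zw10. Further probes of ccna2 and cdc20 also had this course, with differences of 0.51 and 0.48 from 24 to 36 h in BBC eyes. On further probes of cks2 and hmmr these differences were only 0.03 and 0.04, and the hmmr probe changed by -0.32 in MBZ eyes. The representative probes of these genes did not have this course. The 24 h arrays were also the dimmest and were scanned on a separate day, and the part of this in the course was not tested.

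Conversely, birc5a and nuf2 were higher at 24 h than at 12 h in BBC eyes without overlap, as was birc5a in MBZ eyes, where 41.9% and 40.4% of all probes were. The second birc5a probe went the other way, with differences of -0.39 in BBC eyes without overlap and -0.34 in MBZ eyes with overlap. The second anln probe was higher at 24 h, by 0.57 in BBC eyes without overlap and by 0.44 in MBZ eyes with overlap. On the representative anln probe these differences were -1.155 and -1.257. The kinetochore gene nuf2 had levels of 3.27, 3.38, 3.39 and 3.49 on the 12 h arrays of BBC eyes, 3.49, 3.54, 3.73 and 3.79 on the 24 h arrays and 2.60, 2.77, 2.83 and 2.97 on the 36 h arrays. The highest 12 h array and the lowest 24 h array were equal at 2 decimals. Its second probe had the same order of group means. In MBZ eyes the 12 and 24 h arrays of nuf2 overlapped.

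Other gene lists moved over the same interval. Of 93 other M-phase genes, 50 were tested. From 12 to 36 h in BBC eyes 45 were called lower, beside 37.6% of all tested probes, and 1 was called higher. In all, 48 lay below 0, and the median was -0.99. All 38 tested S-phase genes, which copy DNA, fell in both compounds, with medians of -1.39 and -1.25. Red blood cell genes fell too, with medians of -1.16 and -1.41. In each compound 6 of 8 were called lower, beside 37.6% and 38.1% of all tested probes. The eye marker genes went the other way, 17 of 18 called higher and 1 lower in BBC eyes with a median of 0.86. In BBC eyes 14 of 15 skeletal muscle genes were called higher with a median of 2.91, beside 40.3% of all tested probes called higher. The 17 retinal progenitor genes were divided, 8 called higher and 6 lower in BBC eyes with a median of 0.29. The median level of the muscle genes ranged from -1.19 to 0.72 on the BBC 12 h arrays and from 2.59 to 3.43 at 36 h. The part of these other tissues in the fall of the mitosis and spindle genes was not tested, and in RNA of whole eyes fewer dividing cells and less RNA per cell cannot be told apart.

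The central comparison of the study was MBZ against BBC at the same dose and time. None of the 38 genes was called at 12, 24 or 36 h, while 0.321%, 0.321% and 5.62% of all tested probes were. With limma, the counts at an unadjusted p under 0.05 were 2, 1 and 0. The share of all tested probes at that threshold was not counted, so these counts are a description. The smallest adjusted p was 0.911, 0.973 and 0.516. After 12 h of exposure the log2 fold changes of MBZ over BBC spanned -0.36 to 0.20, after 24 h -0.44 to 0.19, and after 36 h -0.20 to 0.22. The 95% intervals of all 38 genes lay within 1 log2 unit of 0 at each time, and those of 30, 31 and 33 genes within 0.5. The median half-width of an interval was 0.29 log2 units at each time, since the fit used 1 spread per gene for all 6 groups. The arrays themselves did not spread equally. In MBZ eyes the median level of the 38 genes spanned 3.46 to 3.67 after 12 h and 2.35 to 3.07 after 36 h. For BBC eyes these ranges were 3.61 to 3.66 and 2.34 to 2.76. The equal widths therefore do not show that effects were bounded as closely after 36 h as after 12 h.

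**Figure D3:**
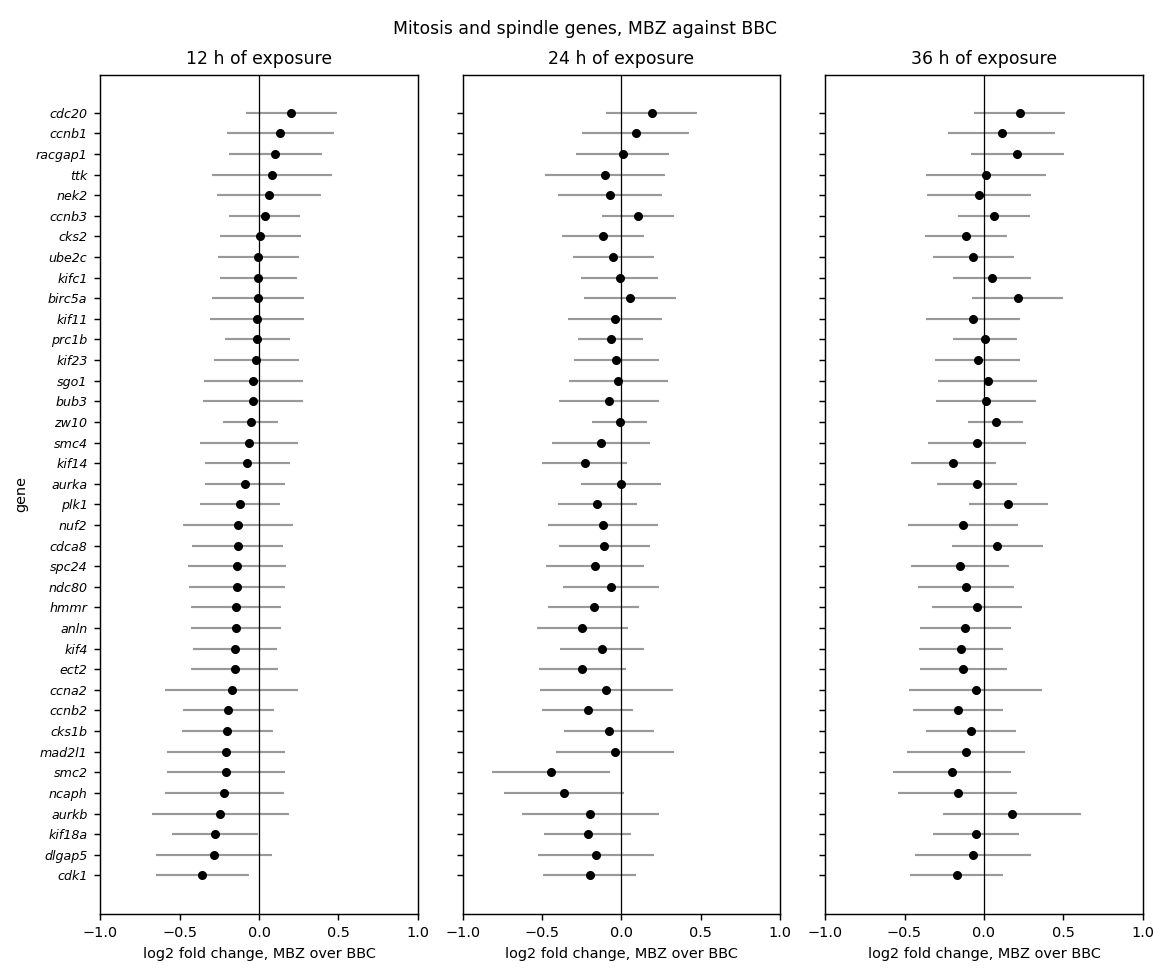
Log2 fold change of MBZ over BBC (points) with the 95% interval of the limma fit (bars) for the 38 genes at 12, 24 and 36 h, in the order of the 12 h values. At 12 h 31 genes lay below 0, at 24 h 33 (9 with normexp background correction) and at 36 h 24, and no gene was called.

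More genes lay below 0 than above it. MBZ was lower in 31 of 38 genes at 12 h, 33 at 24 h and 24 at 36 h, beside 47.7%, 53.9% and 52.9% of all tested probes. The medians were small, -0.10, -0.10 and -0.05, against medians of 0.01, -0.01 and -0.01 over all probes. Genes of one process share their cells and their arrays, so these counts are a description. The other lists of cell division genes lay at similar values: the medians of the other M-phase genes were -0.12, -0.12 and -0.09, those of the S-phase genes -0.17, -0.14 and -0.04, and none of either list was called. Under normexp background correction the 24 h median was 0.16 and 9 of 38 genes were below 0, while that of all probes was -0.13.

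The direction at 36 h differed between the slides. On the slide with replicates 1 and 2, 6 of 38 genes were below 0 with a median of 0.13, and on the slide with replicates 3 and 4, 33 were below 0 with a median of -0.23. At 12 h the slides gave 29 and 24 genes below 0 with medians of -0.08 and -0.08, and at 24 h 30 and 35 with medians of -0.06 and -0.12. Without replicate 1 of MBZ at 36 h the median was -0.20, and ccnb2 and nuf2 were called, both lower in MBZ, beside 5.74% of all probes called in either direction. Without replicate 4 the median was 0.01, and birc5a and cdc20 were called, both higher, beside 11.5%. With the mean over a gene's probes kif4 was called lower, beside 5.54% of the genes and unnamed probes tested. That mean includes the dim kif4 probe described below, which was called by itself, while the other kif4 probes were not called.

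At 12 h, 6 genes were lower and 1 was higher in MBZ without overlap between the groups, against 1.65% and 2.49% of all tested probes. The lower ones were cdk1, kif18a, ncaph, smc2, cks1b and ccnb2, and the higher one was cdc20. The absence of overlap depended on the probe. On the second probes of cdk1, ccnb2 and cks1b the groups overlapped, and on that of ncaph they did not. The further probes of smc2 and of cdc20 were divided, and kif18a had no other probe. Of all 66 probes, 9 were lower and 2 higher without overlap. No gene was without overlap at 24 or 36 h, where 2.99% and 5.40% of all probes were.

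The Cdk1 kinase gene (cdk1) was at 4.83, 4.83, 4.87 and 4.95 on the BBC 12 h arrays and at 4.17, 4.51, 4.58 and 4.81 on the MBZ 12 h arrays. All MBZ arrays lay below all BBC arrays. The log2 fold change was -0.36 (95% interval -0.65 to -0.06, adjusted p = 0.911). At 24 and 36 h it was -0.20 and -0.17 with overlapping groups. The second cdk1 probe gave -0.20, -0.22 and -0.14, with overlapping groups at each time.

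For kif18a, a motor that acts at the ends of kinetochore microtubules, the BBC 12 h arrays were at -0.26, -0.22, -0.19 and -0.15 and the MBZ 12 h arrays at -0.56, -0.51, -0.47 and -0.39. The groups stood apart at a fold change of -0.28 (95% interval -0.55 to -0.0040, adjusted p = 0.989), and the values at 24 and 36 h were -0.21 and -0.05. Cyclin B2 (ccnb2) was at 2.60, 2.67, 2.70 and 2.72 in BBC eyes and at 2.40, 2.46, 2.53 and 2.54 in MBZ eyes at 12 h, a fold change of -0.19, and it was at -0.21 and -0.16 at the later times.

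**Figure D4:**
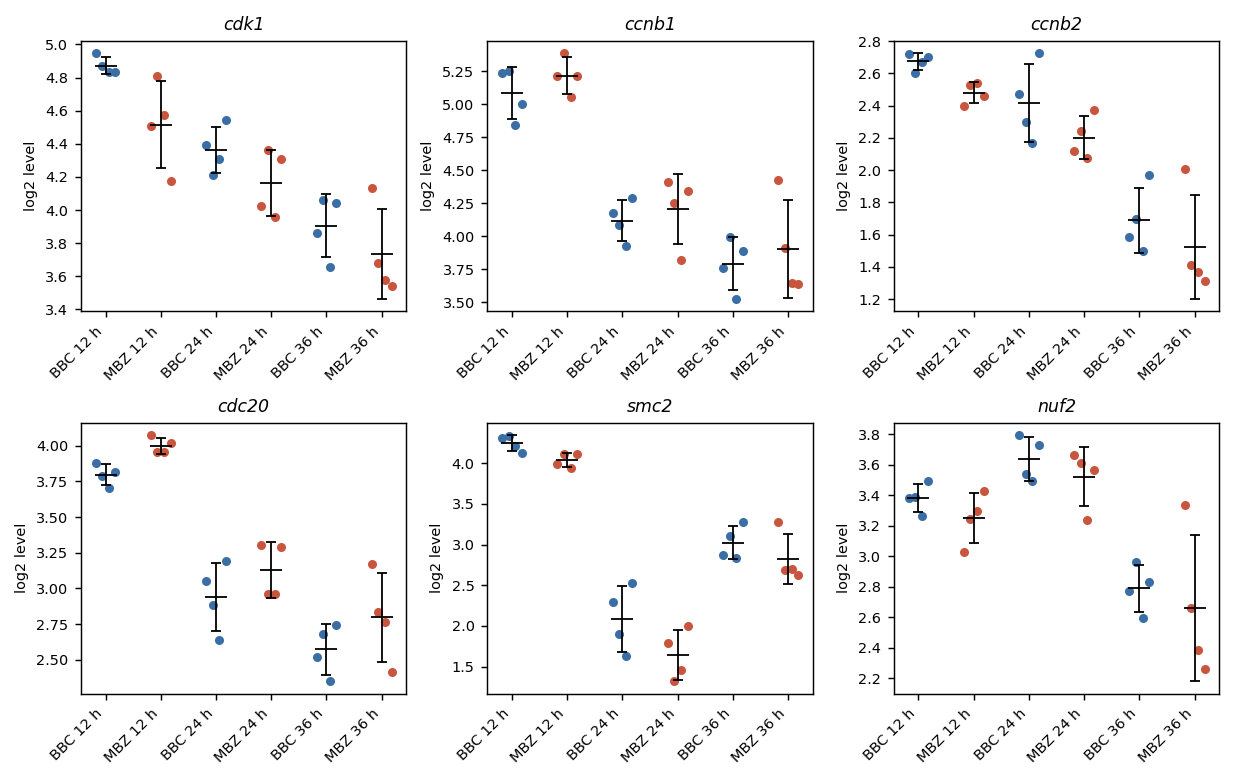
Log2 level per array (points, blue for BBC and red for MBZ) of cdk1, ccnb1, ccnb2, cdc20, smc2 and nuf2 in the 6 groups, with the mean and SD of 4 arrays in black; the axes do not start at 0. The 12 h points of cdk1, ccnb2 and smc2 in MBZ eyes lay below those in BBC eyes, those of cdc20 lay above, and replicate 1 of MBZ at 36 h was the highest of its group in all 6 panels.

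The gene with the highest fold change at each time was cdc20, the target of the checkpoint. On the 12 h arrays it was at 3.70, 3.79, 3.82 and 3.88 in BBC eyes and at 3.95, 3.96, 4.02 and 4.07 in MBZ eyes, with no overlap. The fold changes were 0.20 (95% interval -0.08 to 0.49), 0.19 (-0.10 to 0.47) and 0.22 (-0.06 to 0.51), with adjusted p of 1.0, 1.0 and 0.516. Its other 2 probes gave 0.16 to 0.24 at the 3 times. Cyclin B1, which Cdc20 and the anaphase promoting complex mark for destruction, was at 0.13, 0.09 and 0.11, and its second probe at 0.07, 0.03 and 0.10. Of these values none passed the test.

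At 24 h the lowest fold change was that of smc2. The BBC arrays were at 1.63, 1.90, 2.29 and 2.52 and the MBZ arrays at 1.32, 1.46, 1.79 and 2.0, with overlap between the groups. The fold change was -0.44 (95% interval -0.82 to -0.07, adjusted p = 0.973), and the 5 smc2 probes gave -0.44 to -0.34. The condensin gene ncaph was next at -0.36, followed by ect2 and anln at -0.25 and kif14, a motor of cytokinesis, at -0.23.

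At 36 h the highest fold changes were those of cdc20, birc5a and racgap1, the partner of kif23 in the central spindle, at 0.22, 0.21 and 0.21, and the lowest was that of smc2 at -0.20. Without replicate 1 of MBZ these values were 0.10, 0.05 and 0.08, and that of smc2 was -0.35. The second birc5a probe was at -0.17, so its probes did not share a direction. Over the 22 genes with several probes, all probes of a gene shared a sign for 18, 20 and 18 genes at 12, 24 and 36 h. The 3 checkpoint genes bub3, mad2l1 and ttk lay between -0.11 and 0.01 at 36 h, and between -0.21 and 0.08 at 12 h.

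Of the 66 probes, 1 was called between MBZ and BBC, at 36 h, where 5.62% of all tested probes were. It was 1 of the 3 probes of kif4, a motor that binds chromosome arms, and was noticed after its values were seen, since it is not the probe that represents the gene. At 36 h it was at -3.91, -3.53, -3.37 and -3.21 in BBC eyes and at -5.76, -5.25, -4.12 and -3.73 in MBZ eyes. The fold change was -1.21 (adjusted p = 0.0521), the groups overlapped, and the probe was well above background on 23 of 24 arrays. The other kif4 probes gave -0.15 (adjusted p = 0.679) and -0.25 (adjusted p = 0.691) at 36 h.

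**Figure D5:**
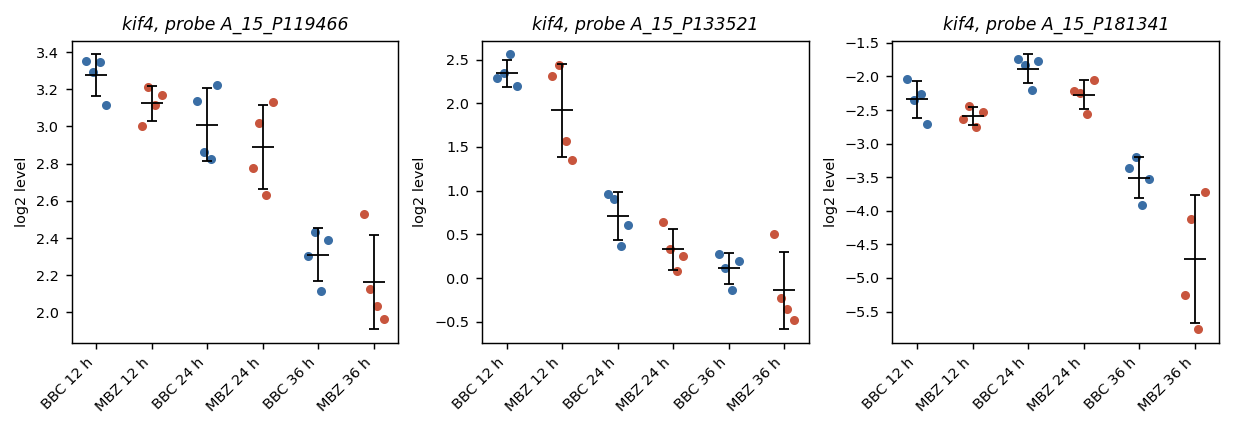
Log2 level per array (points, blue for BBC and red for MBZ) on the 3 probes of kif4 in the 6 groups, with the mean and SD of 4 arrays in black. On the dimmest probe, at the right, the MBZ 36 h arrays spread from -5.76 to -3.73, while on the other probes the MBZ and BBC arrays of 36 h overlapped with fold changes of -0.15 and -0.25.

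The difference between the MBZ effects at 2 exposure times was tested in the same fit. None of the 38 genes was called for 24 h against 12 h, 36 h against 12 h or 36 h against 24 h, where 0%, 0.362% and 0.0635% of all tested probes were.

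Some genes of other lists were called between the compounds in the same arrays. Of the 15 tested G1 and arrest genes, 2, 2 and 5 were called higher in MBZ eyes at 12, 24 and 36 h and none lower, beside 0.295%, 0.289% and 3.17% of all tested probes called higher. The genes called were ccng1 and gadd45aa at each time, with gadd45ab, gadd45ba and gadd45bb at 36 h only. This list held 23 genes, and those without a tested probe were not measured. No cyclin D, cyclin-dependent kinase or kinase inhibitor gene among the 15 tested was called, and the list medians were 0.03, -0.02 and 0.06. Among the 17 retinal progenitor genes 3 were called lower at 36 h, and among the 18 eye marker genes 3 were, 1 of them on both lists, beside 2.44% of all tested probes. Of the 8 macrophage and microglia genes, 0, 1 and 3 were called higher at the 3 times, beside the same shares of probes called higher. The 15 skeletal muscle genes were all above 0 at 12 h, with a median of 0.68 and none called, and their median level ranged from -1.19 to 0.72 on the BBC arrays and from -0.58 to 1.45 on the MBZ arrays. The part of these lists in the values of the mitosis and spindle genes was not tested.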

How the data were processed

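Per the file headers and labels, the authors hybridised Cy3-labelled RNA to Agilent arrays, and the deposited scanner files hold intensity values (processed signal) made with Feature Extraction, 10.1.1.1 in the headers and 8.0 in the submitters' processing notes. The deposited table of log2 values normalized by the authors served as an alternative. Here log2 processed signals were scaled to the 75th percentile of each array. A probe entered the tests (31507 of 43603 did) if its signal was flagged positive, significant and clear of the background on each of the 4 arrays of some group, and uneven spots were left out. Of the probes, 15163 had a gene name through RefSeq accessions; names came from an NCBI table, and no coordinates were used. One limma (3.58.1) fit covered 24 arrays and 6 groups, with 18 residual degrees of freedom, and exact permutation tests were two-sided. Limma took the place of the study's rank product so that exposure times could be compared in the same fit. The number of arrays limits the precision.

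The members and lists were chosen with earlier results of these data known. Named were the genes called, the 5 highest and 5 lowest fold changes at each time, the 5 largest and 5 smallest falls in BBC eyes, and a fixed list of key genes. The limma fit was also run on simulated data, with independent noise for each probe and known changes added to some probes of the MBZ 36 h arrays. Slide effects and correlation between genes were not simulated. Red blood cell genes (8 tested) had no call between the compounds. Same-numbered MBZ and BBC arrays deviated together at 24 h (correlations 0.157 to 0.436), but not in every pair at 12 h (0.025 to 0.128) or 36 h (-0.025 to 0.369), and same-numbered arrays also shared a slide. Alternatives were quantile scaling, the authors' values, normexp background correction on median pixel signals (offset 50), other filters, blocks for replicate number and slide, an adjusted p under 0.05, fits of only the times compared, the mean of a gene's probes and leaving out each array. Promoter motifs were planned but not run, since no promoter sequences were used here.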

Additional observations from a re-analysis of the deposited data

Results flagged for a closer look

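Among 228 sets of 4 arrays (38 genes in 6 groups), 4 had 1 array far from the other 3 by Dixon's criterion. Chance alone would flag about 1 in 20 sets if the sets were independent. The genes share their arrays, so the count cannot be set against that share. On the MBZ 36 h arrays, replicate 1 stood above the others for ccnb2 (2.0 against 1.31 to 1.41) and for smc2 (3.27 against 2.62 to 2.71). On the MBZ 12 h arrays, kif23 was at 4.55 in replicate 4 against 4.36 to 4.38. On the BBC 12 h arrays, spc24, a kinetochore gene, was at 2.44 in replicate 4 against 2.29 to 2.31. No difference between the MBZ effects at 2 exposure times was called for these genes.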

How the results depend on the processing

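Calls of the 38 genes between MBZ and BBC stayed at 0 at 12 and 24 h under every alternative run, and leaving out each array gave 0 to 0 there. At 36 h the count was 1 (kif4, whose mean includes the dim probe called by itself) when a gene's probes were averaged. It was 0 to 2 with 1 array left out, where 636 to 3634 of all tested probes were called. The falls from 12 to 36 h were called for 38 to 38 genes in BBC eyes and 36 to 38 in MBZ eyes with 1 array left out. In either direction, 23678 to 24727 and 23129 to 24272 of all tested probes were then called. Normexp gave 28 and 23 genes, beside 24.5% and 22.4% of all tested probes, and the cause was not tested. Normexp moved the median of all probes to 0.11 and -0.13 at 12 and 24 h and to -0.16 for 36 h against 12 h in MBZ eyes. The birc5a fall in BBC eyes was not called with quantile scaling (-0.12), the authors' values (-0.13) or normexp (-0.33). The replicate block and the slide block kept the count of 0 between the compounds at each time, and with the replicate block within each time the smallest adjusted p was 0.545, 0.409 and 0.285. Over all tested probes, the calls between the compounds (101, 101 and 1770) went from 4 to 159, 0 to 188 and 16 to 3811 over the alternatives other than leaving out arrays, the lowest with normexp and the highest with the replicate block within each time. With 1 array left out the median fold change of the 38 genes ranged over -0.136 to -0.063, -0.158 to -0.026 and -0.199 to 0.014 at the 3 times in order. The called values kept their sign. The 4 arrays per group and the dim 24 h arrays limit small differences.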
